A study of Mus musculus with 4 samples.

Results

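*Ctcfl*, its paralog *Ctcf* and the genes *Prss50* and *Gal3st1* were examined in RNA from whole testes of mice at P10 (postnatal day 10). These 4 genes were picked by their gene symbols from 55820 loci in the table of counts, and all 4 were among the 20561 loci that passed a filter on low counts. There were 2 libraries from control mice and 2 from Mps1sKO mice, all male and of strain C57BL/6J, and the series describes the libraries of each genotype as biological replicates. In Mps1sKO mice, *Stra8*-cre deletes floxed *Mps1* (*Ttk*, which encodes a kinase of the spindle checkpoint) in germ cells, from early spermatogonia onward, so somatic cells of the testis keep the gene. The labels call the other group control and give no alleles for it, and whether each library came from 1 animal is not stated. *Ctcfl*, *Prss50* and *Gal3st1* are also in the study's own list of genes changed between these same libraries. Their values in the 2 genotypes are therefore given as a description, with no test, and *Ctcf* is treated in the same way.

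CTCF is a DNA-binding protein with a row of zinc fingers. It is made in nearly all cells, where it insulates chromosomal domains and stops cohesin as it extrudes loops of DNA. BORIS, the product of *Ctcfl*, has a closely similar set of zinc fingers between different ends. In mice it is largely restricted to male germ cells, mainly spermatogonia and spermatocytes about to enter meiosis. *Gal3st1* and *Prss50* are known as testis genes whose expression depends on BORIS. *Gal3st1* encodes the sulfotransferase that completes seminolipid, the main sulfated glycolipid of male germ cells, and *Prss50* encodes a testis protein of the serine protease family.

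The stretch before the start of *Prss50* and of *Gal3st1* is shown because CTCF and BORIS read the same kind of core sequence and the 2 genes are known as targets of BORIS. Windows of 300 bases, from 250 before to 50 after each start, came from RefSeq on GRCm38.p6. Windows were found for 3 of the 4 genes, and not for *Ctcfl*. The letters searched were AGNNGGCNC, in which N is any base, and AGGGGGC, a more fixed form of the same core that partly overlaps it, each on both strands. Capitals mark every match before the start, the lines run 5′ to 3′ on the plus strand, which is the strand of both genes, and the stretches lie at chr9:110857714-110857963 and chr11:3983386-3983635.
*Prss50*: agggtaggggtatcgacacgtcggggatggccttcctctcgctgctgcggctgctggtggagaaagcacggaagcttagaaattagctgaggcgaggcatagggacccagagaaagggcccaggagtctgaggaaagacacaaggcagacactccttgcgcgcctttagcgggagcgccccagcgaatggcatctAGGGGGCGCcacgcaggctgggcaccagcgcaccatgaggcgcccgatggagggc
*Gal3st1*: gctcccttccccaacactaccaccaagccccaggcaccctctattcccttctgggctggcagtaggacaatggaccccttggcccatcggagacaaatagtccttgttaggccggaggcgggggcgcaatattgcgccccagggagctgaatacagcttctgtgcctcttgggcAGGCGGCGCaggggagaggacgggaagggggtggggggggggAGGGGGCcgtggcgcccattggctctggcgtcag

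In *Prss50*, both sets of letters fell on 1 place, where AGGGGGCGC stood from 55 to 47 bases before the first of its 2 RefSeq starts. In *Gal3st1*, AGGCGGCGC stood from 76 to 68 bases before the first of 3 starts, and AGGGGGC from 34 to 28 bases before it. The third *Gal3st1* start, inside the gene, had 1 match on the minus strand and only 2 CpG dinucleotides in its window. The *Ctcf* window had 3 matches to AGNNGGCNC and none to AGGGGGC. All 6 windows of the 3 genes held AGNNGGCNC, against 21.2% of 32851 windows in the whole table, and 4 of the 6 held AGGGGGC, against 10.6%. Overlapping windows of 1 gene share their matches. Counted by gene, 3 of 3 held AGNNGGCNC, against 23.4% of 27025 genes, and 2 of 3 held AGGGGGC, against 11.9%. The 6 windows were 56.0% to 75.3% G and C, where the median window was 52.7%, and these letters are themselves rich in G and C. A match describes the letters and shows no binding.

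**Figure D1:**
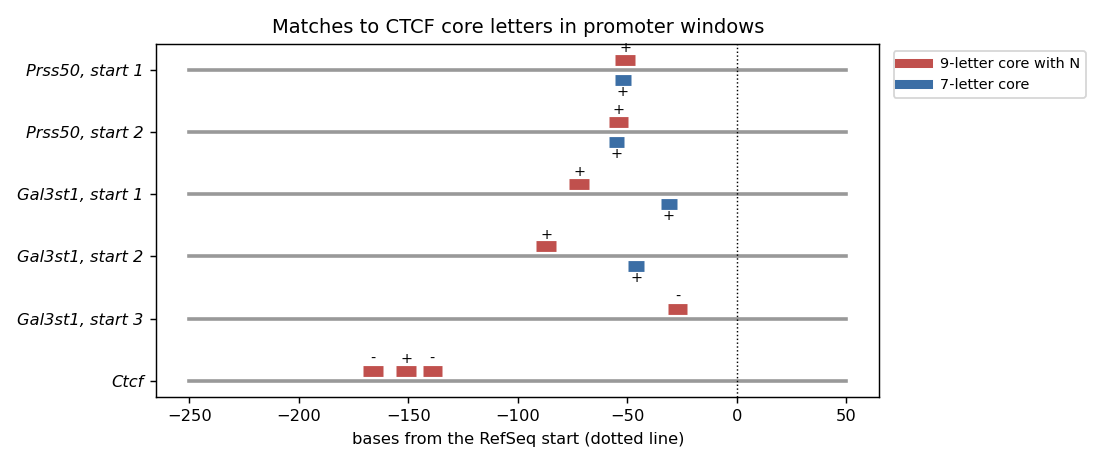
Positions of the CTCF core letters in the RefSeq promoter windows of *Prss50*, *Gal3st1* and *Ctcf*. The horizontal axis is the distance in bases from each start, grey lines are the 300-base windows, red bars are matches to AGNNGGCNC, blue bars are matches to AGGGGGC, and + or - gives the strand; the *Prss50* matches coincide and lie about 50 bases before the start.

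The counts of the libraries summed to between 23311689 and 28607746. *Ttk* itself had 27.9 and 32.6 CPM (counts scaled to a common library size with TMM factors) in control and 13.0 and 12.2 CPM in Mps1sKO libraries, so the labels and the deleted gene go together. Replicates of a genotype were further apart than counting alone gives, with chi-square values per degree of freedom of 8.49 for control and 11.6 for Mps1sKO. An exact permutation test of 2 libraries against 2 cannot go below p = 0.333, so edgeR's quasi-likelihood model was fitted over all tested loci, and its p-values are used only for genes other than the 4. At an adjusted p below 0.05 it called 0.0292% of loci lower and 0.0% higher, and DESeq2 0.134% lower and 0.0346% higher. An unadjusted p below 0.05 from edgeR was found for 5.37% of loci lower and 3.92% higher.

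*Ctcfl* (ENSMUSG00000070495) lies on the minus strand of chromosome 2 from 173093609 to 173119525. The control libraries held 237 and 334 of its counts, the Mps1sKO libraries 150 and 135. Scaled, these were 8.80 and 11.6 CPM in control and 6.47 and 5.04 CPM in Mps1sKO testes. Both Mps1sKO libraries lay below both control libraries, and the mean went from 10.2 ± 1.97 CPM (SD, n = 2) to 5.76 ± 1.02 CPM (SD, n = 2), which is 56.5% of control. The fitted log2 fold change was −0.83 with a standard error of 0.204. The lower control library had a 95% Poisson interval of 7.72 to 10.0 CPM and the higher Mps1sKO library one of 5.48 to 7.60 CPM. Such intervals cover counting error only, and replicates differed by more than that.

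An antisense gene, *Ctcflos*, overlaps *Ctcfl* and shares 171 bases of exon with it. It was counted 89 and 121 times in control and 62 and 78 times in Mps1sKO libraries, which is 3.30 and 4.20 against 2.68 and 2.91 CPM. Its libraries were ordered by genotype in the same way as those of *Ctcfl*. Whether the counting used strand is not given in the sources used here, and without it reads from the shared stretch cannot be told apart.

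*Ctcf* (ENSMUSG00000005698), on chromosome 8 from 105636568 to 105682922, was measured far more deeply, with 2559 to 3246 counts per library. Its level was 112 and 113 CPM in control and 110 and 118 CPM in Mps1sKO testes. The genotypes overlapped, with means of 112 ± 0.337 and 114 ± 5.05 CPM (SD, n = 2 each), and the fitted log2 fold change was 0.02 with a standard error of 0.0867. Its exons overlap those of *Agrp* and *Gm5914* on the other strand, which had at most 55 and 21 counts in any library.

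The paralogs were compared within each library as FPKM, the authors' value per length of gene. *Ctcf* had 8.43 and 6.43 times the FPKM of *Ctcfl* in the control libraries and 11.3 and 15.5 times in the Mps1sKO libraries. The ratio was thus higher in both Mps1sKO libraries, at 13.4 ± 2.94 against 7.43 ± 1.41 (SD, n = 2 each), and the log2 fold changes of the paralogs differed by −0.85. Almost all of that difference came from *Ctcfl*, since *Ctcf* spanned only 110 to 118 CPM.

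*Prss50* (ENSMUSG00000048752), on chromosome 9 from 110857967 to 110864629, was counted 595 and 772 times in control and 247 and 402 times in Mps1sKO libraries. Its level was 22.1 and 26.8 CPM in control and 10.7 and 15.0 CPM in Mps1sKO testes. Again both Mps1sKO libraries lay below both control libraries, with means of 24.4 ± 3.30 and 12.8 ± 3.07 CPM (SD, n = 2 each). The Mps1sKO mean was 52.5% of control, and the log2 fold change was −0.93 with a standard error of 0.183. The Mps1sKO libraries differed from each other by more than counting error, at 9.37 to 12.1 and 13.6 to 16.5 CPM (95% Poisson intervals).

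*Gal3st1* (ENSMUSG00000049721), on chromosome 11 from 3983636 to 3999326, had the fewest counts of the 4 genes, 63 and 109 in control and 32 and 35 in Mps1sKO libraries. These were 2.34 and 3.78 CPM in control and 1.38 and 1.31 CPM in Mps1sKO testes. The Mps1sKO libraries were close to each other and below both control libraries, with means of 3.06 ± 1.02 and 1.34 ± 0.053 CPM (SD, n = 2 each). At 43.9% of control its mean was the lowest relative to control of the 4 genes, and the log2 fold change was −1.19 with a standard error of 0.295. Without control replicate 2, the higher control library, it was −0.80. The 95% Poisson interval of control replicate 1, from 1.80 to 2.99 CPM, overlapped those of both Mps1sKO libraries, from 0.945 to 1.95 and from 0.910 to 1.82 CPM. Overlap of such intervals does not by itself show whether counts differ, and they cover counting error only. *Gal3st1* has 3 transcripts in GENCODE M21, and counts per gene do not say from which start they came.

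**Figure D2:**
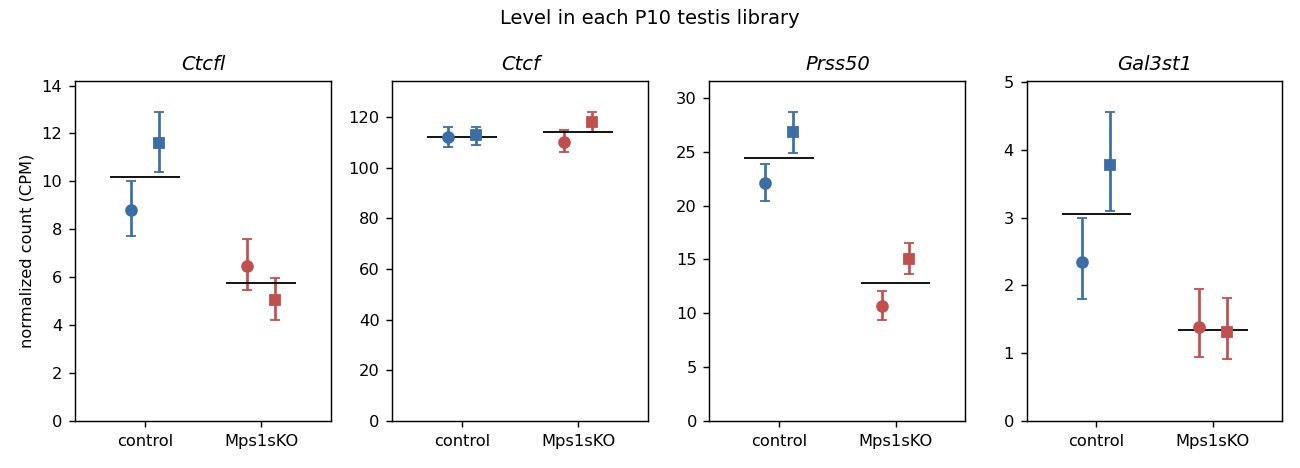
Normalized counts (CPM) of *Ctcfl*, *Ctcf*, *Prss50* and *Gal3st1* in each library, with circles for replicate 1, squares for replicate 2, bars for 95% Poisson intervals (counting error only) and black lines for the means. The Mps1sKO libraries lie below both control libraries for 3 of the genes and overlap them for *Ctcf*.

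For 3 of the 4 genes both Mps1sKO libraries lay below both control libraries, as they did for 21.1% of all tested loci, while for 0 of the 4 both lay above (20.3% of loci). Since the 3 genes were picked for this difference in these same libraries, nothing is read from either count. The study's cut-offs are a change of over 1.5-fold at unadjusted p under 0.01. Set on edgeR's values, 0.681% of loci passed them when lower and 0.146% when higher.

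Per length, the order of the levels was the same in all 4 libraries, with *Ctcf* highest, then *Prss50*, *Ctcfl* and *Gal3st1*. The FPKM values in control were 22.9 ± 0.106 for *Ctcf*, 16.7 ± 2.28 for *Prss50*, 3.14 ± 0.612 for *Ctcfl* and 1.49 ± 0.497 for *Gal3st1* (SD, n = 2 each). In Mps1sKO testes they were 23.4 ± 1.08, 8.78 ± 2.12, 1.78 ± 0.311 and 0.656 ± 0.0246 (SD, n = 2 each). Within a genotype, neighbours in this order did not overlap. Among all tested loci, 87.5% had a lower control FPKM than *Ctcf*, 81.5% a lower one than *Prss50*, 44.9% a lower one than *Ctcfl* and 32.4% a lower one than *Gal3st1*. *Prss50* was thus a well-expressed gene at P10, while *Ctcfl* stood near the middle of the tested loci.

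Relative to *Ctcfl* in the same library, *Prss50* had 5.55 and 5.11 times its FPKM in control and 3.64 and 6.58 times in Mps1sKO testes. The genotypes overlapped in this ratio. *Gal3st1* had 0.419 and 0.514 of the *Ctcfl* FPKM in control and 0.336 and 0.409 in Mps1sKO testes, so both Mps1sKO libraries were lower, the nearer one by little. *Ctcfl* was lowest in Mps1sKO replicate 2 and *Prss50* in Mps1sKO replicate 1, and the 2 genes therefore did not keep one order among the Mps1sKO libraries.

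A whole testis holds many cell types, and fewer cells of a type cannot be told apart from less RNA per cell. A list of 12 pan germ cell genes, of which 11 were in the table and all 11 were tested, was used as a scale. This list and those that follow were chosen with earlier results of these data known, so counts of their genes are a description. For all 11 both Mps1sKO libraries lay below both control libraries (21.1% of all tested loci), the median log2 fold change was −0.41 (0.00027 over all tested loci), and the list summed to 1810 and 2200 CPM in control and 1720 and 1270 CPM in Mps1sKO libraries. Some gaps between control replicate 1 and Mps1sKO replicate 1 were narrow, 466 against 463 CPM for *Dazl* and 283 against 282 CPM for *Tex15*. For *Mael* the gap was wider, 133 against 101 CPM. The median was −0.65 without Mps1sKO replicate 1, −0.27 without control replicate 2 and −0.21 without Mps1sKO replicate 2. None of its genes was at 0. With edgeR 0 of the 11 passed an adjusted p of 0.05 and 9 an unadjusted p of 0.05 (5.37% of loci lower). DESeq2 gave 1, *Mael*, an adjusted p below 0.05 (0.134% of loci lower). Examples from the list are *Mael* at −0.51 and *Tdrd9* at −0.50, both genes of the piRNA pathway, and *Rnf17* at −0.49, a gene of germ cell granules. The part of this shift in the levels of the 4 genes was not tested, and the values on the scale of germ cell genes follow.

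The log2 level of *Ctcfl* minus the mean log2 level of the pan germ cell genes was −3.90 and −3.75 in control and −4.24 and −4.19 in Mps1sKO libraries. Also on this scale both Mps1sKO libraries were below both control libraries, with a log2 difference of −0.387 beside SDs of 0.104 in control and 0.0358 in Mps1sKO (n = 2 each). For *Gal3st1* the values were −5.78 and −5.35 in control and −6.41 and −6.08 in Mps1sKO libraries, a difference of −0.678. For *Prss50* they were −2.58 and −2.55 in control and −3.52 and −2.63 in Mps1sKO libraries, so replicate 2 of Mps1sKO almost met the controls. As the fold change minus the median of the list, *Prss50* was at −0.52, and this was −0.05 without Mps1sKO replicate 1 and −0.99 without Mps1sKO replicate 2. *Ctcf* went the other way, from −0.239 and −0.480 in control to −0.161 and 0.337 in Mps1sKO libraries. *Ctcfl*, *Prss50* and *Gal3st1* are in the study's list, chosen for changes of over 1.5-fold in these same libraries. The pan germ cell median, −0.41, fell by less, so a lower level on this scale was partly fixed by that choice. The choice also bears on the scales that follow.

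Genes of the meiotic prophase made a second scale. On it *Ctcfl* was at −1.19 and −1.14 in control and at −1.29 and −1.45 in Mps1sKO libraries, a log2 difference of −0.206. *Prss50* overlapped between the genotypes, at 0.134 and 0.0591 in control and −0.580 and 0.109 in Mps1sKO libraries. *Gal3st1* did not, at −3.06 and −2.74 in control and −3.46 and −3.34 in Mps1sKO libraries. Relative to genes of undifferentiated spermatogonia, the stem and progenitor cells, the differences were larger, −0.679 for *Ctcfl*, −0.805 for *Prss50* and −0.971 for *Gal3st1*. Relative to genes of differentiating spermatogonia they were −0.424, −0.550 and −0.715. Both of these lists were mixed, with log2 fold changes from −0.42 to 0.22 in the undifferentiated and from −0.79 to 0.30 in the differentiating list. Whether their genes are made only in these cells was not tested.

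**Figure D3:**
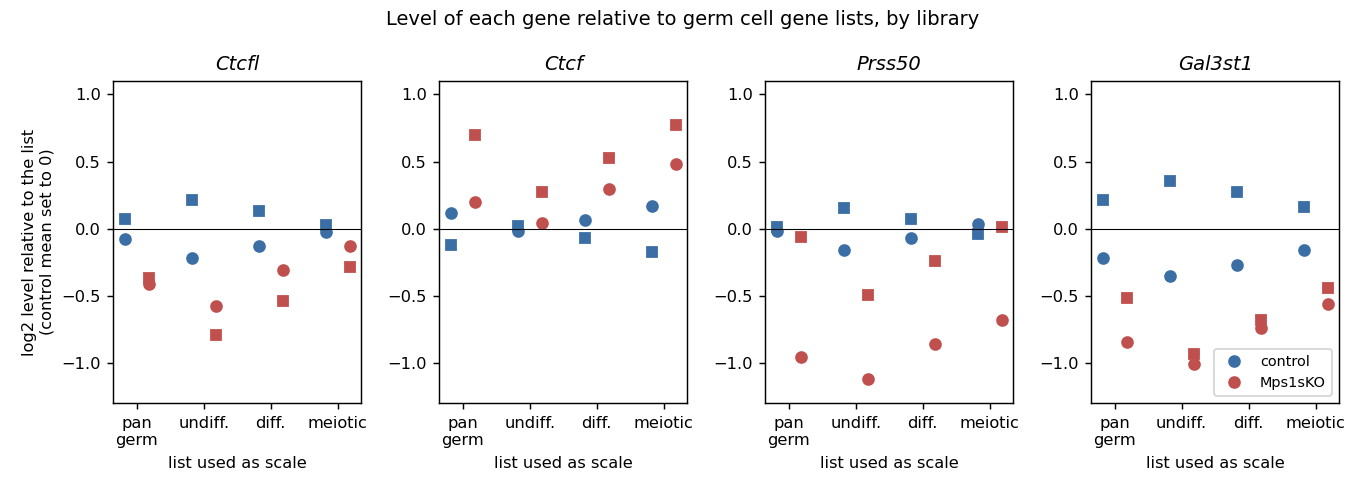
Log2 level of each gene relative to the mean log2 level of a list of germ cell genes in the same library, with the control mean set to 0. Blue points are control and red points Mps1sKO libraries, circles are replicate 1 and squares replicate 2. The 4 positions are the pan germ cell, undifferentiated, differentiating and meiotic prophase lists. *Ctcfl* and *Gal3st1*, picked for their difference in these libraries, stay below control on every scale, and *Prss50* meets control on the meiotic one.

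Likeness was measured as the distance between 2 genes over the 4 libraries, after each gene's mean log2 CPM was set to 0, among 16838 other annotated genes with at least 1 CPM. With 4 libraries, many genes lie close to any pattern, so this is a description. The gene most like *Ctcfl* was *Stra8*, the retinoic acid target needed for entry into meiosis, at a distance of 0.0509. *Stra8* had 112 and 151 CPM in control and 86.7 and 65.5 CPM in Mps1sKO libraries. Next were *Galnt6* at 0.0809, *Ccdc155* at 0.0861, a gene that links meiotic telomeres to the nuclear envelope, *4932431P20Rik* at 0.0901 and *Tgm6* at 0.0943. *Gal3st1* ranked 325 and *Prss50* ranked 1436 by likeness to *Ctcfl*, and *Ctcf* ranked 8485.

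The genes most like *Prss50* were *4921536K21Rik*, *Otud6a*, *Aanat*, *Gm18393* and *Galnt13*, at distances of 0.0900 to 0.169. Those most like *Gal3st1* were *Spint5*, *H2bfm*, *Fthl17d*, *Slc12a3* and *Gm45552*, at 0.193 to 0.273. Seen from *Gal3st1*, *Ctcfl* ranked 30 at a distance of 0.405 and *Prss50* ranked 81 at 0.517. Seen from *Prss50*, *Gal3st1* ranked 187 and *Ctcfl* ranked 450. The gene nearest to *Gal3st1* was itself at 0.193, so a low rank there does not mean a short distance. All 3 genes were picked for a difference in these libraries, so some likeness is built in. *Ctcf*, which was nearly flat, had neighbours at 0.00672 to 0.0131, namely *Lrch2*, *Tcf7l2*, *Ssr4*, *Csrnp1* and *Vamp7*.

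**Figure D4:**
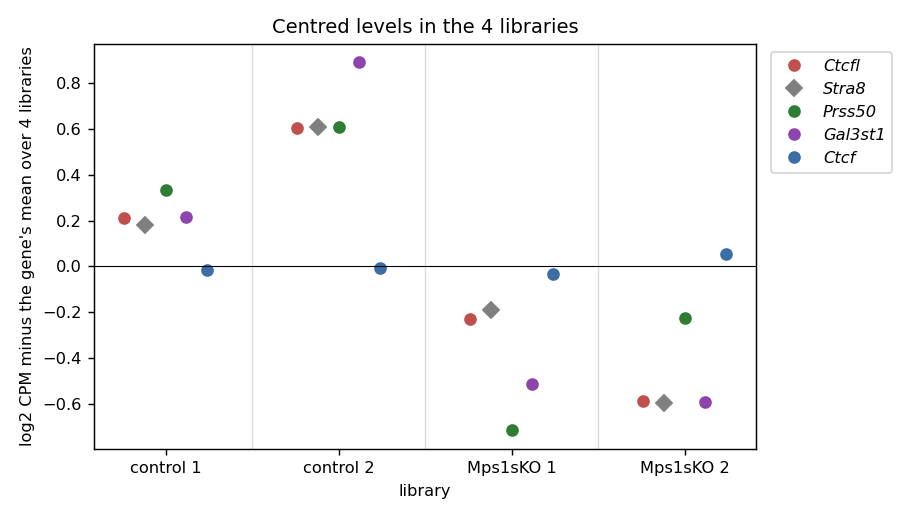
Log2 CPM of each gene minus its mean over the 4 libraries. *Stra8* (grey) lies within 0.05 of *Ctcfl* (red) in every library, *Prss50* (green) is lowest in Mps1sKO replicate 1, *Gal3st1* (purple) has the widest spread and *Ctcf* (blue) stays near 0.

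The partners of CTCF in chromosome folding were compared by a list of 20 genes, all tested. Of these 12 had a higher and 8 a lower fitted value in Mps1sKO testes (50.1% and 49.9% of all tested loci), and the median log2 fold change was 0.01. None passed an adjusted p of 0.05 with edgeR or with DESeq2, and 0 had an unadjusted p below 0.05 with edgeR. Values ranged from −0.16 to 0.13, with *Npm1*, a nucleolar chaperone, and *Smc3*, a core cohesin subunit, both at −0.16 and *Nipbl*, the loader of cohesin, at 0.13. *Ctcf* at 0.02 thus lay within the range of its partners.

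The cohesin subunits made only in germ cells gave other values. *Stag3*, *Smc1b* and *Rad21l* had log2 fold changes of −0.61, −0.56 and −0.53 and lay lower in both Mps1sKO libraries (21.1% of all tested loci). *Rec8* was at −0.07 and overlapped between the genotypes, with 27.0 ± 3.41 and 25.7 ± 4.90 CPM (SD, n = 2 each). With edgeR 0 of the 4 passed an adjusted p of 0.05 and 3 an unadjusted p of 0.05 (5.37% of loci lower). DESeq2 gave 1, *Stag3*, which is also in the study's own list, an adjusted p below 0.05 (0.134% of loci lower). Among proteins described as partners of BORIS, the methyltransferase genes *Prmt7* and *Setd1a* were at −0.26 and −0.10 and *Bag6* at 0.12. All 3 overlapped between the genotypes, and none passed an adjusted p of 0.05 or an unadjusted p of 0.05 with edgeR, nor an adjusted one with DESeq2.

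*Gal3st1* acts on a lipid that other enzymes prepare, and 12 genes of that pathway, of the sulfate donor and of seminolipid breakdown were all tested. Their median log2 fold change was 0.06, with 9 higher and 3 lower (50.1% and 49.9% of all tested loci). *Ugt8a*, which adds the galactose that *Gal3st1* then sulfates, was lowest at −0.66. Its counts were 432 and 612 for control and 301 and 284 for Mps1sKO, which is 18.6 ± 3.66 against 11.8 ± 1.69 CPM (SD, n = 2 each), and it is in the study's own list. The ether lipid genes *Gnpat*, *Agps* and *Far1*, which act before it, were at 0.02, 0.04 and 0.04. *Far2* was at −0.14, *Papss2*, which makes the sulfate donor, at 0.27, and *Arsa*, the sulfatase that removes the sulfate, at 0.11. None of the 12 passed an adjusted p of 0.05 with edgeR or DESeq2, and 1, *Ugt8a*, had an unadjusted p below 0.05 with edgeR (5.37% of loci lower).

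Of the 5 other galactose 3-O-sulfotransferase genes, 3 were tested. *Gal3st3* had 4.86 ± 0.576 CPM in control and 3.75 ± 0.0732 CPM in Mps1sKO testes (SD, n = 2 each). Its log2 fold change was −0.38, with both Mps1sKO libraries lower (21.1% of all tested loci). *Gal3st2* and *Gal3st2b* had at most 21 and 17 counts in any library and log2 fold changes of −0.08 and 0.42. For *Gal3st2b* both Mps1sKO libraries were higher (20.3% of all tested loci), and *Gal3st2* overlapped between the genotypes. *Gal3st2c* and *Gal3st4* had at most 7 and 4 counts. None passed an adjusted p of 0.05 or an unadjusted p of 0.05 with edgeR, and DESeq2 gave none an adjusted p below 0.05.

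*Prss50* stands at the end of a row of protease genes on chromosome 9, after *Prss42*, *Prss44*, *Prss43*, *Prss45* and *Prss46*, which begin at 110798166. Per length its own level, 16.7 FPKM in control, was far above theirs, since *Prss42* had 2.10 ± 0.505 FPKM and *Prss44* 0.332 ± 0.0415 FPKM there (SD, n = 2 each). *Prss44* was counted 29 and 37 times in control and 13 and 15 times in Mps1sKO libraries, and its log2 fold change was −1.07 with a standard error of 0.332 (edgeR, adjusted p = 0.495). *Prss42* was at −0.50 and overlapped between the genotypes. *Prss43*, *Prss45* and *Prss46* were not tested, with at most 12 counts in any library. *Tmie*, the next gene on the other side of *Prss50*, was at 0.30 with a standard error of 0.106 (edgeR, adjusted p = 0.505) and was named after its values were seen. Of all 10 tested genes within 200 kb, a window chosen after the data were seen, 6 had negative log2 fold changes (49.9% of all tested loci). With edgeR 0 of the 10 passed an adjusted p of 0.05 and 3 an unadjusted p of 0.05. Of these, *Prss44* and *Ltf* were lower and *Tmie* higher (5.37% and 3.92% of all tested loci). *Ltf*, which encodes lactoferrin and was also named after its values were seen, was counted 12 and 11 times in control and 0 times in both Mps1sKO libraries.

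The wider list of 15 testis serine proteases holds 5 tested genes, all 5 with negative log2 fold changes (49.9% of all tested loci). Their median was −0.50, with a range from −1.07 to −0.34. The 10 not tested had at most 12 counts in any library, and 2 of them, *Prss37* and *Prss58*, had none in all 4. *Prss41* was at −0.83 with a standard error of 0.291 (edgeR, adjusted p = 0.505), with 66 and 118 counts in control and 40 and 52 in Mps1sKO libraries. Below an adjusted p of 0.05 edgeR placed 0 of them and DESeq2 0, and 2 were lower at an unadjusted p below 0.05 from edgeR (5.37% of loci). *Acr*, the acrosomal protease of later germ cells, was counted 7 and 26 times in control and 12 and 11 times in Mps1sKO libraries.

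**Figure D5:**
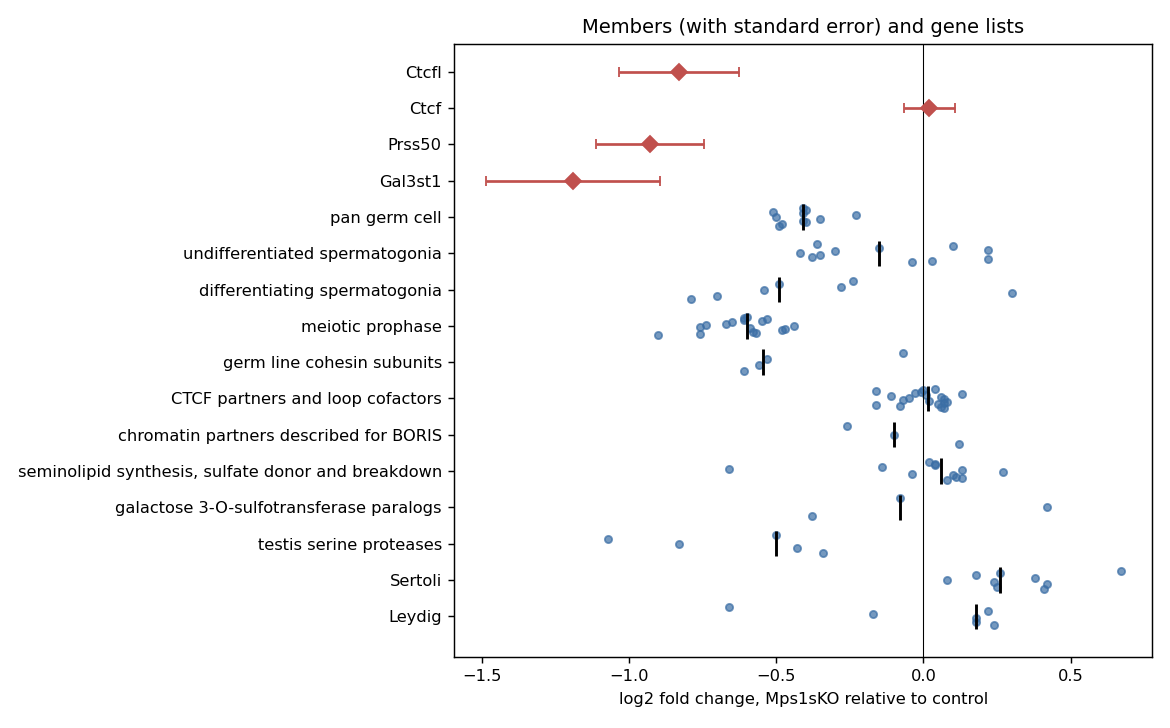
Log2 fold changes of Mps1sKO relative to control. Red diamonds are the 4 genes with standard errors, blue points are the tested genes of each list shown and black lines their medians; *Ctcf* lies with the CTCF partners near 0, while *Ctcfl*, *Prss50* and *Gal3st1*, picked for their difference in these libraries, lie at −0.83, −0.93 and −1.19.

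The tissue was checked with markers of the cells a P10 testis could hold. Of 17 meiotic prophase genes all were tested, and for all 17 both Mps1sKO libraries were below both control libraries (21.1% of all tested loci), with a median log2 fold change of −0.60. They summed to 528 and 694 CPM in control and 429 and 364 CPM in Mps1sKO libraries, none was at 0, and 8 of them are in the study's own list, among them *Meioc* at −0.90, *Prdm9* at −0.76 and *Spo11* at −0.76. With edgeR 0 passed an adjusted p of 0.05 and 15 an unadjusted p of 0.05 (5.37% of loci lower), and DESeq2 gave 1, *Meioc* (0.134% of loci lower). The study's list was chosen on this same contrast, so passes by its genes, here and in other lists, were partly fixed in advance. Of 7 genes of differentiating spermatogonia 6 were lower (49.9% of all tested loci), with a median of −0.49. Their summed levels were 613 and 655 CPM in control and 593 and 519 CPM in Mps1sKO libraries. For 5 of the 7 both Mps1sKO libraries lay below both control libraries (21.1% of all tested loci). Of these, *Stra8* was at −0.79, *Rhox13* at −0.70, both in the study's own list, and *Dmrtb1* at −0.54. *Kit* was at −0.24 and overlapped between the genotypes. *Ccnd2* went the other way, at 0.30, with both Mps1sKO libraries above both control libraries (20.3% of all tested loci). It had 215 and 182 CPM in control and 254 and 235 CPM in Mps1sKO libraries, a large part of the summed levels. With edgeR 0 of the 7 passed an adjusted p of 0.05. At an unadjusted p of 0.05 it placed 5 lower and 1 higher (5.37% and 3.92% of loci). DESeq2 gave 1, *Stra8*, an adjusted p below 0.05 (0.134% of loci lower). Of 11 genes of undifferentiated spermatogonia 7 were lower (49.9% of all tested loci), with a median of −0.15 and summed levels of 483 and 436 against 420 and 387 CPM. For 5 of the 11 both Mps1sKO libraries lay below both control libraries (21.1% of loci). These were *Sall4* at −0.42, *Utf1* at −0.38, *Zbtb16* at −0.36, *Lin28a* at −0.35 and *Nanos3* at −0.30. For 1, *Etv5* at 0.22, both lay above (20.3% of loci). *Gfra1*, *Id4*, *Nanos2*, *Ret* and *Foxo1* overlapped between the genotypes. At an unadjusted p of 0.05 edgeR placed 3 of the 11 lower (5.37% of loci), and none passed an adjusted p of 0.05 with edgeR or DESeq2.

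The 9 tested Sertoli genes all had positive log2 fold changes (50.1% of all tested loci), with a median of 0.26, and for 4 of the 9 both Mps1sKO libraries lay above both control libraries (20.3% of loci). The value was 0.67 for *Amh*, which overlapped between the genotypes with 228 and 114 CPM in control and 207 and 337 CPM in Mps1sKO libraries, 0.42 for *Dhh* and 0.41 for *Kitl*. They summed to 4700 and 5140 CPM in control and 6350 and 5500 CPM in Mps1sKO libraries, and *Rhox5*, the tenth on the list, had 1 count in 1 control library and none elsewhere. Leydig genes (6) had a median of 0.18, peritubular myoid genes (4) −0.09, macrophage genes (6) −0.07, endothelial genes (5) 0.10 and red blood cell genes (4) 0.12. Of 5 round spermatid genes 2 were tested, with a median of −0.19, and *Prm2*, a protamine of late spermatids, had at most 2 counts in any library, below the 3 counts that a count of 0 allows. Neither edgeR nor DESeq2 gave any of these somatic and spermatid genes an adjusted p below 0.05. With edgeR 3, all of the Sertoli list and all higher, had an unadjusted p below 0.05 (3.92% of loci higher). The part of these shifts in the levels of *Ctcfl*, *Prss50* and *Gal3st1* was not tested.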

How the data were processed

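RNA of whole testes at P10 was sequenced as paired-end NEBNext Ultra libraries on an Illumina NovaSeq platform, in 2 control and 2 Mps1sKO libraries grouped by their titles. The submitters' processing notes name HISAT2 2.0.5, featureCounts, DESeq2 1.16.1 and mm10. The authors deposited raw counts per gene and FPKM values, which are scaled by gene length and library size. Strandedness and the annotation release are not given in the sources used here, but the coordinates of the 4 genes equal those of GENCODE M21 on GRCm38.

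The count model was that of edgeR 4.0.16, run under R 4.3.3 (filterByExpr, TMM, quasi-likelihood F test on genotype, Benjamini-Hochberg adjustment over 20561 of 55820 loci). CPM values use the TMM library sizes, and log2 CPM values a prior count of 2. Standard errors are the log2 fold change divided by the square root of F. FPKM values were used only to compare levels between genes. Library totals were 23311689 to 28607746 counts, and the limit that a 0 allows, 3 counts, equals 0.104 to 0.129 CPM.

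The 4 genes and the 17 lists were chosen with earlier results of these data known, so no set test was made. Genes named were drawn from the 4 genes, *Ttk*, up to 3 tested genes per list with the largest absolute log2 fold change, all of a list of 5 or fewer, and for each of the 4 genes the 5 genes most like it. Others were named after their values were seen. Alternatives were DESeq2 1.42.0, its size factors in edgeR, library size only, other filters, a replicate block and each library left out. The fits were tested on simulated counts. Promoter windows came from RefSeq, with Python 3.11.15. The protein comparison of the paralogs was not analysed here.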

Additional observations from a re-analysis of the deposited data

How the results depend on the processing

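*Ctcfl*, *Prss50* and *Gal3st1* kept their direction under every alternative run, and apart from left-out libraries their log2 fold changes stayed within −0.85 to −0.82, −0.95 to −0.92 and −1.21 to −1.15. When single libraries were left out, the log2 fold change ranged from −1.02 to −0.62 for *Ctcfl*, from −1.20 to −0.70 for *Prss50*, from −1.49 to −0.80 for *Gal3st1* and from −0.02 to 0.07 for *Ctcf*, where the lone library of a group is assumed to vary like the other group. Less the median of the pan germ cell list, the same ranges were −0.45 to −0.34, −0.99 to −0.05, −0.94 to −0.53 and 0.18 to 0.72, and the difference between *Ctcfl* and *Ctcf* ranged from −1.08 to −0.63. The smallest difference for *Gal3st1*, −0.80, came without control replicate 2.

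Loci lower and higher at an adjusted p below 0.05 numbered 6 and 0, with 1105 and 807 at an unadjusted p below 0.05 from edgeR. They numbered 251 and 139 with no filter on low counts and 27 and 7 with DESeq2, and 3 were lower with at least 10 counts in every library. With a library left out they ranged from 11 to 126 lower and from 6 to 73 higher, most without control replicate 1 and fewest without Mps1sKO replicate 1. By the study's cut-offs (1.5-fold, unadjusted p under 0.01) there were 140 lower and 30 higher, 339 and 135 with no filter, and 100 to 325 lower and 77 to 189 higher with a library left out. The cause was not tested.

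The replicate numbers of the titles are not said to pair the libraries, and same-numbered libraries deviated from their group means with a correlation of −0.19. With the replicate number as a block, 2 loci were lower at an adjusted p below 0.05. Under the crossed pairing, an alternative added after seeing the data, 304 were lower and 246 higher, and 71 were higher by the study's cut-offs. Neither pairing moved a log2 fold change of the 4 genes by more than the spread between replicates.

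List medians ranged as follows with a library left out. They were −0.65 to −0.21 for pan germ cell genes, −0.74 to −0.35 for germ line cohesin, −0.06 to −0.00 for CTCF partners, −0.13 to −0.04 for BORIS partners, 0.02 to 0.08 for the seminolipid list, −0.40 to 0.23 for sulfotransferase paralogs, −0.96 to −0.18 for serine proteases, −0.38 to −0.12 for undifferentiated spermatogonia, −0.77 to −0.37 for meiotic prophase (−0.37 without control replicate 2), 0.25 to 0.45 for Sertoli, 0.03 to 0.17 for Leydig, −0.14 to −0.05 for peritubular myoid, −0.13 to 0.09 for macrophage, −0.01 to 0.15 for endothelial and 0.03 to 0.20 for red blood cell genes. The round spermatid median, from 2 tested genes, reversed to 0.04 without control replicate 2 and to 0.11 without Mps1sKO replicate 1, within −0.60 to 0.11. With library size only, the peritubular myoid median was −0.11. The letters AGGGGGC in place of AGNNGGCNC were found in 4 of the 6 promoter windows, which belong to 2 of the 3 genes. The serine protease median was −0.84 under the filter of 10 counts, and the protein comparison of the paralogs was not run.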
